A study of Arabidopsis thaliana with 16 samples.

Results

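A set of 23 Arabidopsis thaliana genes carried more lysine 2-hydroxyisobutyrylation (Khib) in the sant-null mutant than in the wild type Col-0. The histone deacetylase mutant hda9 had a smaller gain at these genes or none. The 23 genes were taken from 23471 genes at least 1 kb long, among 32548 genes measured. The selection asked for a log2 ratio of (RPKM + 1) to Col-0 of at least 0.9 in sant-null and below 0.5 in hda9, with at least 3 RPKM in sant-null (RPKM scales reads by gene length and library size, so that levels of different genes can be compared). The genes were thus selected on their sant-null, hda9 and Col-0 values, which are given as a description. The hda6 values did not enter the choice.

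Khib is an acyl mark of histone lysines that is found over genes and, in plants and animals, has been linked with active transcription. Acyl groups of this kind are removed by histone deacetylases, the enzyme family of HDA6 and HDA9. SANT domains are short histone-binding or DNA-binding folds found in many chromatin proteins, deacetylase complexes among them. The series as a whole concerns such proteins in transcription and in tolerance of heat, but all seedlings here were untreated.

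ChIP-seq with an antibody against Khib was done on whole 12-day-old seedlings of 4 genotypes. They grew on plates at 22 °C, with 16 h light and 8 h dark per day, and were fixed with 1% formaldehyde for 15 min. The genotypes were wild-type Col-0, sant-null, labelled as quadruple mutants, an hda6 line made with EMS (a chemical mutagen) and an hda9 line with a T-DNA insertion. No further allele names are given, and whole seedlings pool all cell types. The 16 samples comprise 2 ChIP and 2 input libraries for each genotype, whereas the gene tables hold 1 value per genotype. No comparison below has a replicate check or a test, and each 95% interval covers counting error only.

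The depth behind the values was 18.6 M reads for the wild type, 12.0 M for sant-null, 16.75 M for the hda6 line and 38.77 M for hda9, but all 23 genes had fewer reads in Col-0 than in sant-null, so counting error at them was larger in Col-0. No input values were used here, so more of the mark and more DNA at a locus cannot be told apart. The photosynthesis gene CAB1 had 139, 92.4, 104 and 35.1 RPKM in Col-0, sant-null, hda6 and hda9. RBCS1A, also a photosynthesis gene, had 16.6, 16.6, 19.4 and 13.1 RPKM in that order. The seed storage gene CRA1 had 26.2, 17.8, 23.5 and 14.3 RPKM in the same order, and SESA1, another, had 35.6, 21.2, 26.1 and 17.6. Both kinds of gene carried the signal, so these levels do not check the tissue. Over genes of at least 1 kb the median log2 ratio to Col-0 was 0.29 in sant-null, 0.21 in the hda6 line and 0.48 in hda9. The hda9 threshold thus lay close to the median gene, and 51.1% of the long genes were below it. The sant-null threshold was passed by 992 long genes, 4.23% of them, of which 969 were at or over the hda9 threshold and 23 were not.

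**Figure D1:**
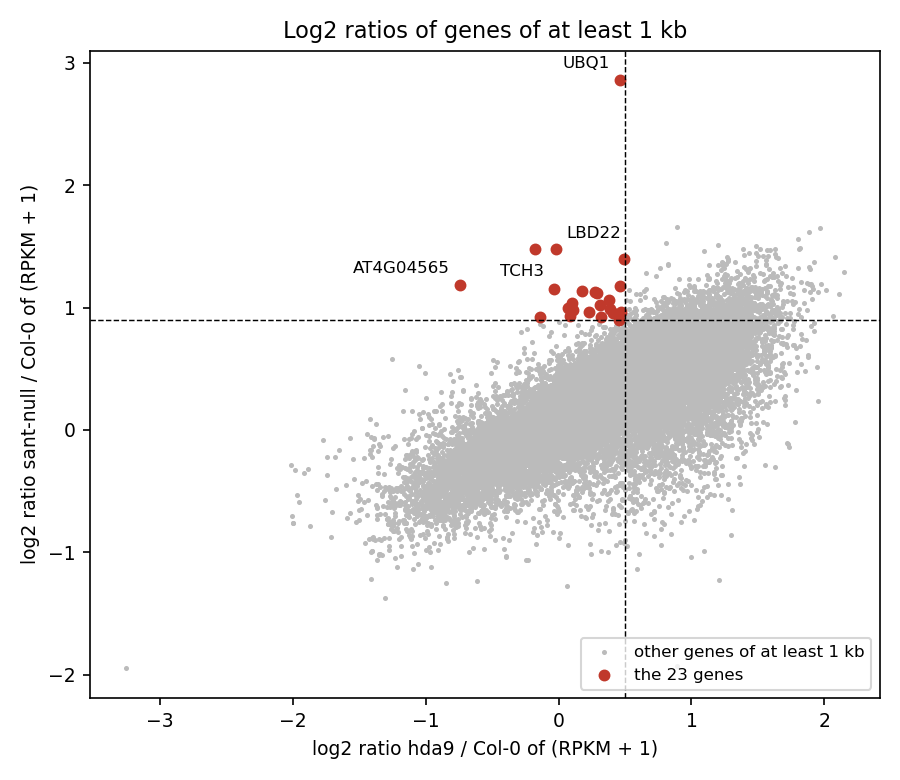
Log2 ratio of (RPKM + 1) to Col-0 for sant-null (vertical axis) against hda9 (horizontal axis), 1 point for each of 23471 genes of at least 1 kb. Red points are the 23 genes, dashed lines are the thresholds of 0.9 and 0.5, and UBQ1 stands at 2.86 while no gene outside the set exceeds 1.66.

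Most of the 23 genes held more of the mark than the median long gene already in the wild type. The median level of the 23 was 12.0 RPKM in the wild type, with 31.7 in sant-null, 16.5 in the hda6 line and 13.7 in hda9. The 969 genes that passed the sant-null threshold but not the hda9 one had medians of 3.44, 7.96, 4.84 and 9.48 RPKM in the same order. In Col-0, 21 of the 23 genes lay above the median of long genes, 5.69 RPKM. Without 6 genes of chromosome 2 described below, the Col-0 median of the set was 10.7 RPKM. The Col-0 value enters both ratios of the selection, so these levels are a description. The sant-null log2 ratio ran from 0.90 to 2.86 with a median of 1.04, and that of hda9 ran from -0.74 to 0.49 with a median of 0.27. The counting interval of the hda9 fold to Col-0 lay above 1 at 15 genes, included 1 at 6 and lay below 1 at 2. Most of the set was thus also higher in hda9 on this scale, by less than in sant-null. That is not particular to the set, since the median hda9 log2 ratio of all long genes was 0.48. The share of all long genes with such an interval was not taken.

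The genes were short for the long-gene class, with lengths from 1013 to 5044 bp and a median of 1554 bp against 2322 bp for all long genes. Of the 23, 21 encode proteins and 2 give long non-coding RNAs, and 10 have a gene symbol. Chromosome 2 held 9 of them, chromosome 1 held 5, and chromosomes 3, 4 and 5 held 3 each. Read numbers behind a value ran from 138 to 3014 in Col-0 and from 210 to 4483 in sant-null. The counting interval of the fold of sant-null to Col-0 lay above 1 for all 23. That follows from the ratio threshold at these read numbers and is no further check.

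**Figure D2:**
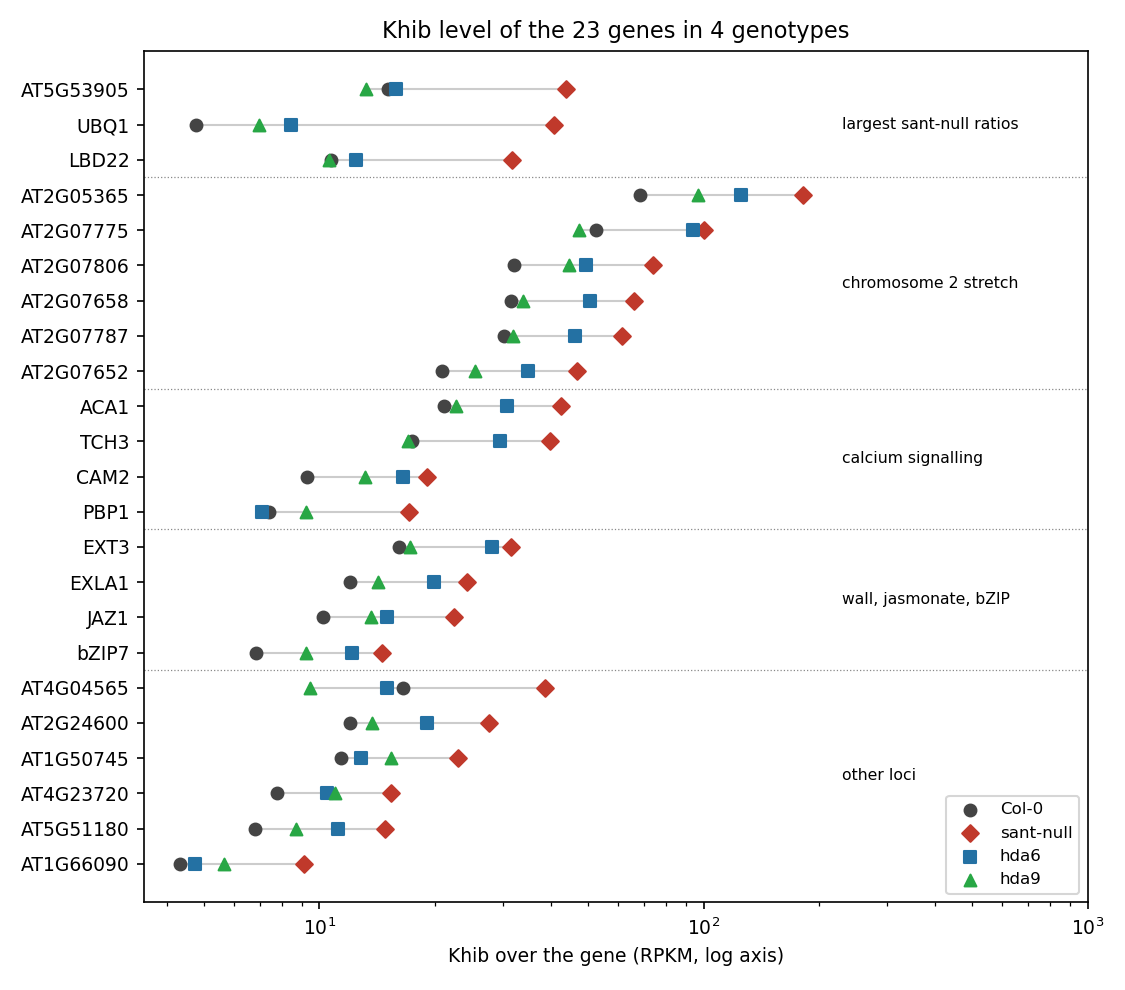
Khib level (RPKM, log axis) of each of the 23 genes in Col-0 (grey circles), sant-null (red diamonds), hda6 (blue squares) and hda9 (green triangles), 1 value per genotype. Sant-null is the highest of the 4 genotypes for each gene, from 9.09 RPKM at AT1G66090 to 181 at AT2G05365.

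The 3 largest sant-null ratios belonged to UBQ1, LBD22 and AT5G53905. UBQ1 (AT3G52590, TAIR10 chromosome 3, 19505379 to 19506932, plus strand) encodes ubiquitin fused to a ribosomal protein, and its level was 4.77 RPKM (Col-0), 40.9 (sant-null), 8.45 (hda6) and 6.97 (hda9). Only the sant-null value stood far from the others. The sant-null fold was 8.56 (95% interval 7.13 to 10.3), from 762 reads in sant-null and 138 in Col-0, and sant-null was also 4.83-fold (4.16 to 5.64) above hda6. Among the 9 ubiquitin genes of at least 1 kb, UBQ1 was the only one at the sant-null threshold. UBQ3 and UBQ4, which encode polyubiquitins, had log2 ratios of 0.65 and 0.64, and those of UBQ10 and UBQ11 were 0.11 and 0.05.

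LBD22 (AT3G13850, chromosome 3, 4559619 to 4561020, plus strand) belongs to the plant-specific LOB-domain transcription factors. It had 10.7 RPKM in the wild type, with 31.7 in sant-null, 12.5 in the hda6 line and 10.6 in hda9. The values of hda6 and hda9 differed from Col-0 by less than counting error, with folds of 1.16 (0.983 to 1.37) and 0.983 (0.851 to 1.14). The family as a whole did not share its ratio. The median log2 ratio of sant-null over 27 long LOB-domain genes was -0.11, with 4 of them at least 1.5-fold higher and 3 at least 1.5-fold lower. The shares over all long genes were 21.4% and 2.3%. LBD29 was the only other family member at the sant-null threshold, with a log2 ratio of 1.34 in sant-null and 1.20 in hda9.

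AT5G53905 (chromosome 5, 21888148 to 21889254, minus strand), a protein-coding locus with no symbol, had 15.1 RPKM (Col-0), 43.9 (sant-null), 15.9 (hda6) and 13.2 (hda9). It overlaps U3B, the gene of a small nucleolar RNA that guides processing of ribosomal RNA, over 520 bp on the opposite strand, which is 47.0% of its length. U3B, too short for the selection, had 17.8 RPKM in the wild type, with 103 in sant-null, 17.0 in the hda6 line and 11.3 in hda9. Its sant-null fold was 5.76 (4.98 to 6.69), larger than the 2.91 (2.53 to 3.35) of AT5G53905, and reads in the shared bases count for both.

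The authors' islands at these 3 loci were short segments, some reaching past the gene. In the authors' deposited table of islands (regions of enriched signal), UBQ1 had an island from 378 bp before to 422 bp after its start with 610 reads in sant-null and 62 in Col-0, a fold of 13.5. A second UBQ1 island in the authors' deposited table, 1222 to 1422 bp from the start, had 147 and 15 reads and a fold of 12.9. LBD22 had an island of 182 to 582 bp from its start with a fold of 0.957 in the authors' deposited table, not called as different. A further island in the authors' deposited table, 982 to 1582 bp from the LBD22 start, had 367 and 100 reads and a fold of 5.08. That second region runs past the end of LBD22 and covers 89 of the 101 bp of the U6 small nuclear RNA gene U6-26. U6-26 itself had 8.52 RPKM (Col-0), 21.5 (sant-null), 4.14 (hda6) and 24.5 (hda9), from only 16, 26, 7 and 96 reads. At AT5G53905, the authors' deposited table gave a fold of 4.02, from 581 and 201 reads, for an island 654 to 1454 bp from its start, over U3B.

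**Figure D3:**
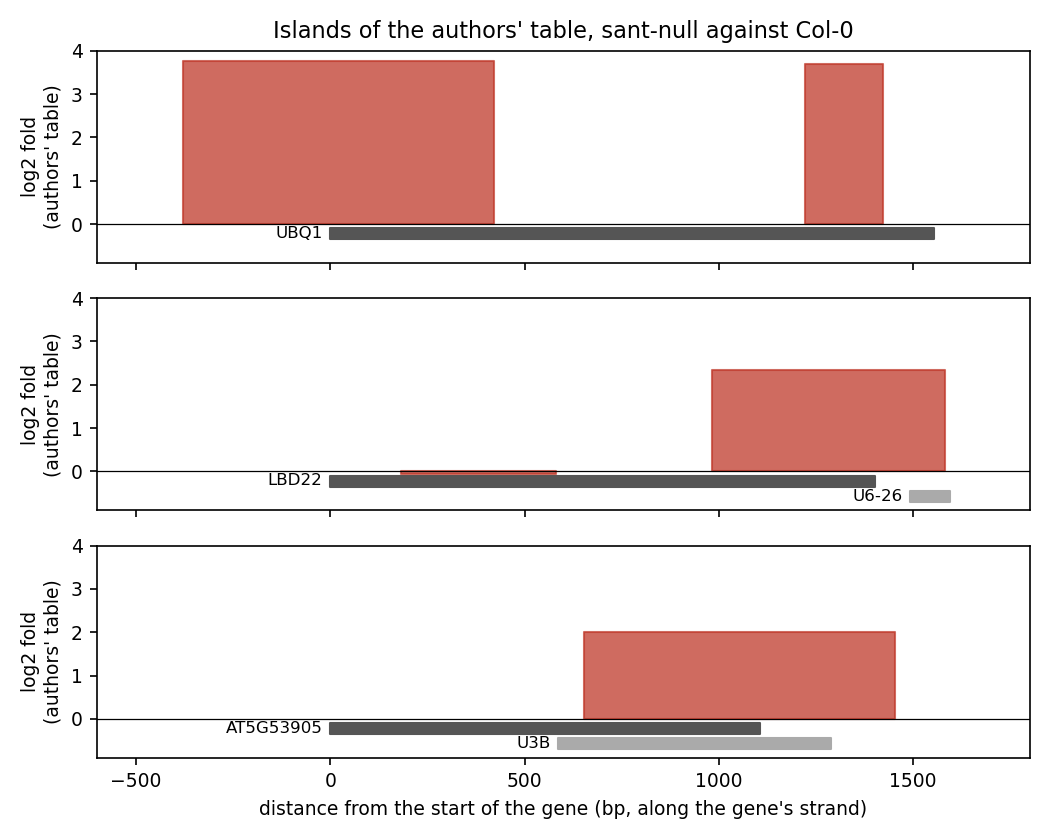
Log2 fold of sant-null to Col-0 of each island in the authors' deposited table (red blocks, height on the vertical axis) against distance in bp from the start of UBQ1, LBD22 and AT5G53905 along the gene's strand. Dark bars are these genes and light bars are U6-26 and U3B; the UBQ1 blocks have folds of 13.5 and 12.9, and of the 2 LBD22 blocks only the one that overlaps U6-26, with a fold of 5.08, was called higher.

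The genes beside these loci varied. AT3G52580, upstream of UBQ1, had 5.70 RPKM in the wild type and 4.85 in sant-null. CWINV2, a cell wall invertase gene that overlaps the end of UBQ1 by 42 bp, had 6.69 and 14.8, and AT3G13845, upstream of LBD22, had 6.69 and 6.79. AT5G53910, beside AT5G53905, had 1.94 and 6.37 from only 25 and 53 reads, and 7.93 in hda9. As background, sequences of UBQ1, U6-26 and U3B are widely used as promoters in plant transformation and genome-editing vectors. The sources used here do not say how the quadruple mutants were made, and whether they carry further copies of these sequences was not tested.

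A second group of 4 genes acts in calcium signalling, in which calmodulins bind calcium and pumps remove it from the cytosol. This grouping was made after the values were seen. TCH3 (AT2G41100, chromosome 2, 17137037 to 17139700) encodes a calmodulin-like protein known for its rapid transcription after touch. Its level was 17.4 RPKM in the wild type, with 39.9 in sant-null, 29.6 in the hda6 line and 17.0 in hda9, so hda9 lay at the wild-type level (fold 0.976, 0.899 to 1.06). The fold was 2.30 (2.10 to 2.51) in sant-null and 1.70 (1.56 to 1.86) in hda6. AT2G41105, a locus inside TCH3 on the other strand, had 28.6 RPKM in the wild type and 80.6 in sant-null, so this segment of TCH3 held more than its average.

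The calmodulin gene CAM2 (AT2G41110, chromosome 2, 17140183 to 17141431) starts 482 bp after TCH3 ends. It had 9.25 RPKM (Col-0), 19.0 (sant-null), 16.5 (hda6) and 13.2 (hda9). Its order of genotypes was that of TCH3 but for hda9, which was 1.42-fold (1.22 to 1.67) above Col-0, and sant-null and hda6 differed by less than counting error (1.15, 0.979 to 1.35). ACA1 (AT1G27770, chromosome 1, 9671632 to 9676307), an autoinhibited calcium pump gene, had 21.1 RPKM in the wild type, with 42.5 in sant-null, 30.7 in the hda6 line and 22.7 in hda9. Its fold in sant-null was 2.02 (1.90 to 2.15).

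PBP1 (AT5G54490, chromosome 5, 22121102 to 22122122) encodes a calcium-binding protein that binds the PINOID kinase of auxin transport. It had 7.37 RPKM (Col-0), 17.1 (sant-null), 7.08 (hda6) and 9.25 (hda9). Unlike the other calcium genes it stood higher in sant-null with no difference beyond counting error in hda6 (fold 0.960, 0.746 to 1.23). In the authors' deposited table a PBP1 island 499 to 699 bp from its start had a fold of 2.13.

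The wider calcium families were read beside the share of all long genes. Of 15 calmodulin and calmodulin-like genes of at least 1 kb, 4 were at least 1.5-fold higher in sant-null and 0 lower, against 21.4% and 2.3% of all long genes, and the median log2 ratio was 0.27. CML37, another calmodulin-like gene, lay just under the threshold with 14.8 RPKM in the wild type, 27.6 in sant-null, 24.8 in the hda6 line and 15.3 in hda9 (log2 ratio 0.86 in sant-null). The calmodulin genes CAM3 and CAM7 had log2 ratios of 0.10 and -0.00 in sant-null. Of 7 calcium pump genes, 3 were at least 1.5-fold higher, ACA1 (0.98), ACA2 (0.84) and ACA11 (0.66), and 0 lower, against the same shares. In hda9 the log2 ratios of these 3 were 0.11, 0.59 and 0.54, so ACA2 and ACA11 were over the hda9 threshold. Of the 4 touch genes, TCH3 and TCH4, a xyloglucan-modifying enzyme gene, had log2 ratios of 1.15 and 0.83 in sant-null and -0.03 and -0.24 in hda9. CAM1, which the touch list takes as TCH1, and TCH2 had 0.25 and 0.28 in sant-null and 0.38 and -0.12 in hda9. CAM2 was not in that list.

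JAZ1, EXT3, EXLA1 and bZIP7 form the remaining genes with a symbol. JAZ1 (AT1G19180, chromosome 1, 6621777 to 6623668) encodes a repressor of jasmonate responses that the hormone marks for breakdown. It had 10.2 RPKM in the wild type, with 22.5 in sant-null, 15.0 in the hda6 line and 13.6 in hda9, a sant-null fold of 2.196 (1.91 to 2.52). Of 8 long JAZ genes, JAZ1 and JAZ6 (0.65) were at least 1.5-fold higher in sant-null and 0 were lower, where 21.4% and 2.3% of all long genes were. The JAZ median log2 ratio was 0.32, close to the 0.29 of all long genes.

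EXT3 (AT1G21310, chromosome 1, 7453245 to 7455009) encodes an extensin, a structural glycoprotein of the cell wall. It had 16.1 RPKM (Col-0), 31.5 (sant-null), 28.2 (hda6) and 17.2 (hda9), so that sant-null and hda6 stood together (1.12-fold, 1.01 to 1.24) above Col-0 and hda9. EXLA1 (AT3G45970, chromosome 3, 16896166 to 16897308), an expansin-like gene, had 12.0 RPKM in the wild type, with 24.3 in sant-null, 19.8 in the hda6 line and 14.2 in hda9. Its close relatives did not follow it: EXLA2 had log2 ratios of -0.33 in sant-null and -0.64 in hda9, and the neighbouring EXLA3 had 16.3 RPKM in the wild type and 14.2 in sant-null. In the authors' deposited table the EXLA1 island had a fold of 1.33, and it runs on into the next gene, HTB9.

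The transcription factor gene bZIP7 (AT4G37730, chromosome 4, 17723639 to 17725037) had 6.84 RPKM (Col-0), 14.5 (sant-null), 12.1 (hda6) and 9.24 (hda9). It was the only bZIP gene of 26 at the sant-null threshold, and 2 of the 26 were at least 1.5-fold higher in sant-null while 0 were lower. The lists of 71 WRKY, 93 NAC and 168 AP2/ERF factors, 16 heat shock factors and 17 heat shock proteins held none of the 23 genes, which make up 0.0980% of all long genes, so lists of these sizes could be without one. Of the heat shock factors, 6 were at least 1.5-fold higher in sant-null and 1 was lower. The bZIP and heat shock factor counts stand beside shares of 21.4% higher and 2.3% lower over all long genes.

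A group of 6 genes lay within 51.2 kb of chromosome 2, from 3440302 to 3491455, a span that holds 14 of the 23471 long genes (0.0596%). None has a symbol, and the span was set by these genes. As background, chromosome 2 of Col-0 carries a large insertion of mitochondrial DNA near its centromere. Whether these genes lie in it was not tested, no organelle genes are listed in the tables, and the sources used here do not say how reads that match several places were handled.

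The long non-coding RNA locus AT2G05365 had the highest level of the set, with 68.3 RPKM in the wild type, 181 in sant-null, 125 in the hda6 line and 96.5 in hda9. AT2G07775 had 52.5 RPKM in the wild type, with 100.2 in sant-null, 93.7 in the hda6 line and 47.5 in hda9, and sant-null and hda6 differed by less than counting error there (1.07, 0.992 to 1.15). AT2G07806, the longest gene of the set at 5044 bp, had 32.1, 74.1, 49.5 and 44.7 RPKM in the same order. All 3 kept the order of sant-null above hda6 above hda9, but only AT2G07775 was below Col-0 in hda9.

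AT2G07658 and AT2G07787 overlap by 1123 bp on opposite strands and so are not independent. AT2G07658 had 31.6 RPKM (Col-0), 66.0 (sant-null), 50.7 (hda6) and 33.9 (hda9), and AT2G07787 had 30.3, 61.4, 46.2 and 31.9. In both, the interval of the hda9 fold included 1. AT2G07652, at the other end of the stretch, had 20.9 RPKM in the wild type, with 47.0 in sant-null, 34.9 in the hda6 line and 25.4 in hda9.

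The stretch holds 8 further long genes, which the selection did not take. Of these, 6 were at least 1.5-fold higher in sant-null, 1 was lower, and 2 were at least 1.5-fold higher in hda6. Their median log2 ratio was 0.84 in sant-null, 0.48 in the hda6 line and -0.13 in hda9. In the 200 kb to the left, 25 long genes had medians of 0.11, 0.23 and -0.26, and in the 200 kb to the right, 11 had medians of 0.22, -0.06 and -0.00. Since the 6 genes set the span, the contrast with the flanks is a description. The largest sant-null ratio among long genes outside the set was also here, at AT2G07659 (9.23 RPKM in the wild type, with 31.4 in sant-null, 15.1 in the hda6 line and 17.9 in hda9). It missed the set by its hda9 ratio of 0.89.

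**Figure D4:**
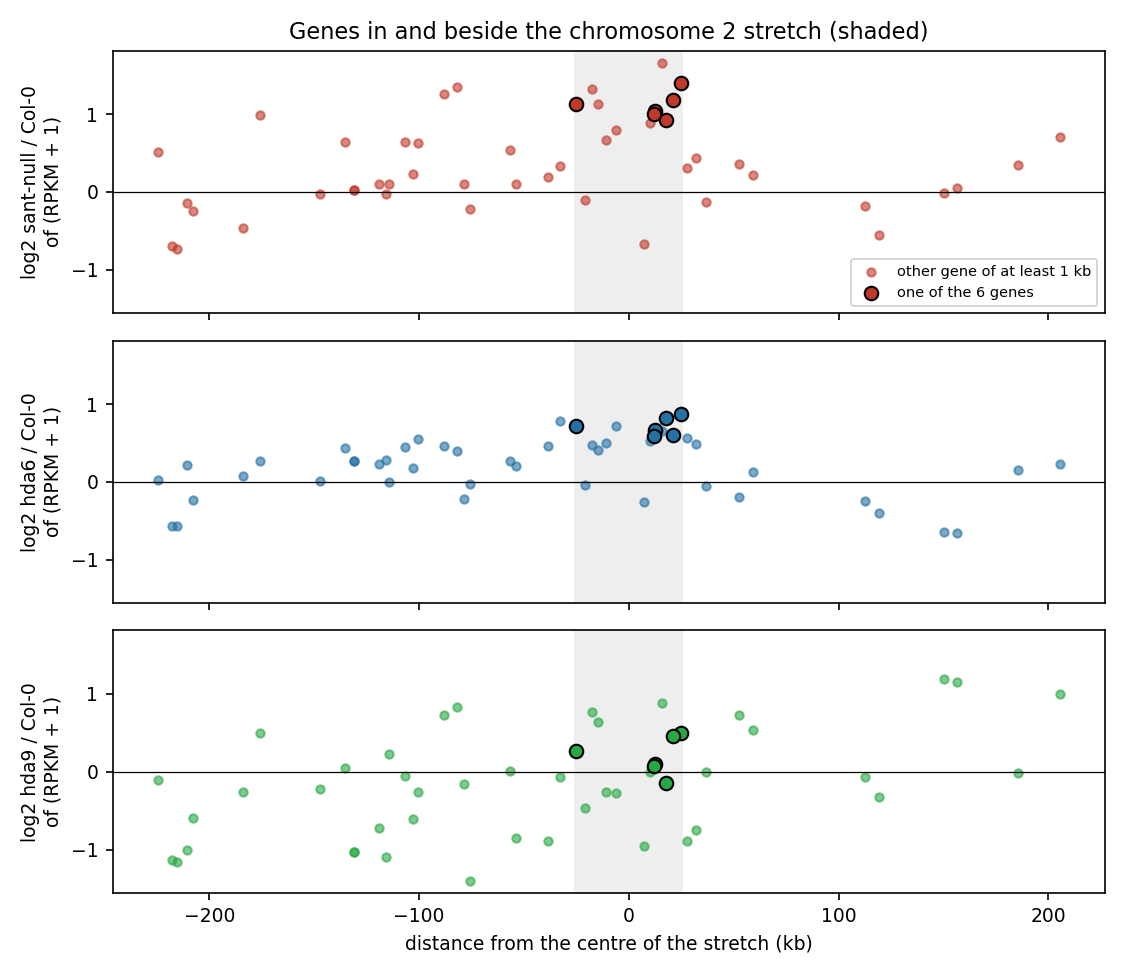
Log2 ratio of (RPKM + 1) to Col-0 of genes of at least 1 kb in sant-null, hda6 and hda9 (panels from top to bottom) against distance in kb from the centre of the 51.2 kb stretch of chromosome 2 (shaded). Large outlined points are the 6 genes of the set; the medians of the 8 other long genes in the shaded stretch are 0.84, 0.48 and -0.13.

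The last 6 genes have no symbol. AT4G04565, a long non-coding RNA locus on chromosome 4 (1472018 to 1473136), had 16.5 RPKM (Col-0), 38.7 (sant-null), 15.0 (hda6) and 9.45 (hda9). It was the only gene of the set at least 1.5-fold lower in hda9, where 6.96% of long genes were. AT2G24600 had 12.0 RPKM in the wild type, with 27.6 in sant-null, 19.0 in the hda6 line and 13.7 in hda9.

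AT5G51180 had 6.78 RPKM (Col-0), 14.8 (sant-null), 11.2 (hda6) and 8.67 (hda9), but its end holds a second gene, AT5G51190, on the other strand. AT5G51190, at 965 bp just under the length threshold, had 23.2 RPKM in the wild type, with 49.8 in sant-null, 39.8 in the hda6 line and 19.0 in hda9. The authors' deposited table places the AT5G51180 island, with a fold of 1.83, at 3651 to 4451 bp from the start, over the inner gene.

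AT1G50745 had 11.3 RPKM (Col-0), 22.98 (sant-null), 12.9 (hda6) and 15.4 (hda9). AT1G66090 had 4.33, 9.09, 4.74 and 5.66 RPKM in the same order, the lowest levels of the set. AT4G23720 had 7.74, 15.3, 10.4 and 10.9 RPKM and the smallest sant-null ratio. At these 3 genes hda9 stood above hda6.

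The hda6 values, which the selection did not use, were placed between Col-0 and sant-null at 21 of the 23 genes (91.3%). This was so at 93.0% of the 969 genes over the hda9 threshold and at 43.8% of all long genes, so the share is not particular to the set. They share the Col-0 values with the ratios that chose the genes. The median hda6 log2 ratio was 0.62, against 0.43 for the 969 genes over the hda9 threshold and 0.21 for all long genes. In hda6, 14 of 23 genes were at least 1.5-fold higher, where the share over all long genes was 5.68% and 243 of the 969 were. None of the 23 was at least 1.5-fold lower, where 0.626% of long genes were. With the same 23 genes and the libraries scaled to equal medians, 0 were at least 1.5-fold higher in hda6, where 0.303% of long genes were, and after quantile normalization again 0, where 1.05% were. The sant-null count past the same fold fell from 23 to 12 of 23 with equal medians and was 22 after quantile normalization. Under both scalings 17 of 23 were above Col-0 in hda6 and 23 of 23 in sant-null, on whose values the genes were chosen. The median hda6 log2 ratio of all long genes was then -0.07 with equal medians and 0.008 after quantile normalization. The counts past 1.5-fold depend on the scale of the libraries in both mutants. Without the chromosome 2 stretch the count on the deposited scale was 8 of 17 and the median 0.52. The counting interval of the hda6 fold lay above 1 at 17 genes and included 1 at 6, namely LBD22, AT5G53905, PBP1, AT4G04565, AT1G50745 and AT1G66090. The share of all long genes with such an interval was not taken, so these counts describe the set only.

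**Figure D5:**
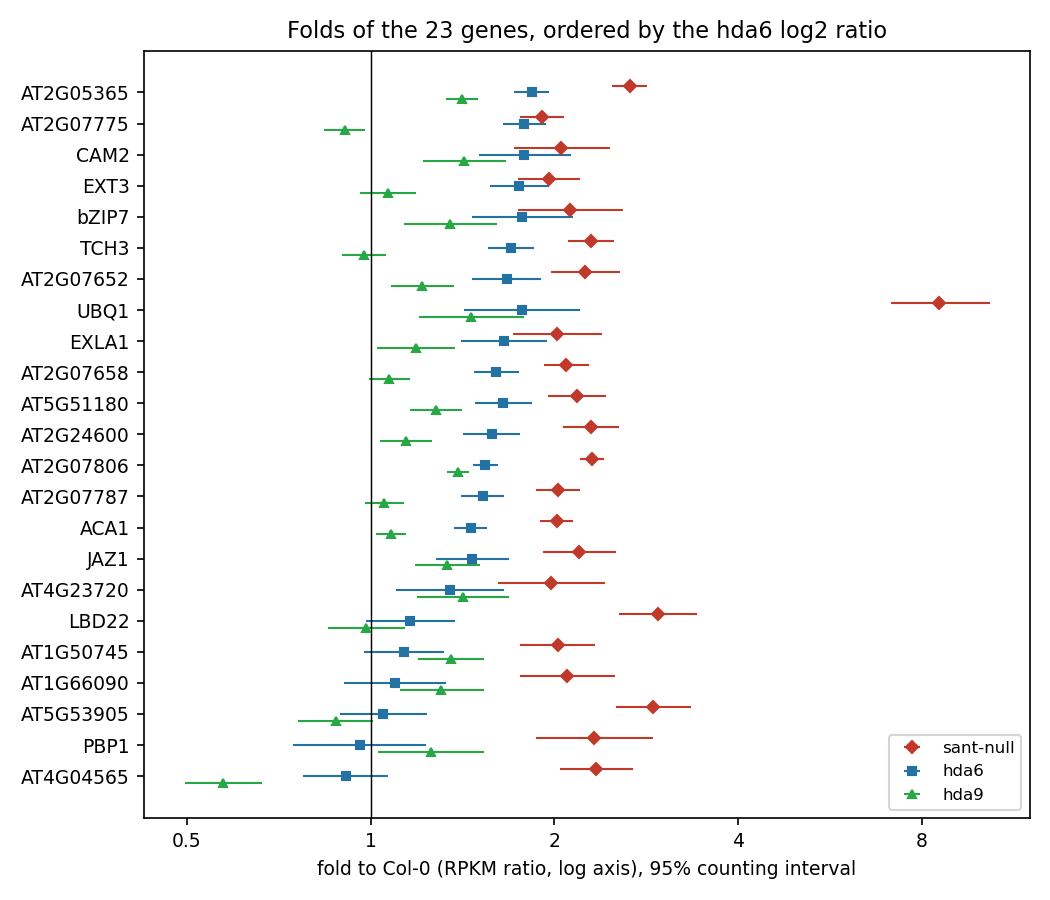
Fold of sant-null (red), hda6 (blue) and hda9 (green) to Col-0 for each of the 23 genes (ratio of RPKM values, log axis), ordered by the hda6 log2 ratio, with 95% counting intervals as bars. The hda6 interval includes 1 at the 6 lowest genes, and sant-null reaches 8.56 at UBQ1.

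Set against hda6 directly, without Col-0, sant-null was at least 1.5-fold higher at 7 of the 23 genes, where the share over all long genes was 6.78%. Of the 969 genes chosen by the same sant-null threshold, 518 were. The 7 were UBQ1, LBD22, AT5G53905, PBP1, AT4G04565, AT1G50745 and AT1G66090, and 6 of these are the genes whose hda6 fold did not differ from 1 by more than counting error. The median of that log2 ratio was 0.51, against 0.61 for the 969. In the chromosome 2 stretch none of the 6 genes reached 1.5-fold, with log2 ratios from 0.10 to 0.57. The set thus spanned genes at which hda6 and hda9 lay within counting error of Col-0, such as LBD22, and genes with nearly equal levels in sant-null and hda6, such as AT2G07775 and EXT3.

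The order of genotypes was sant-null, hda6, hda9, Col-0 from high to low at 14 genes and sant-null, hda6, Col-0, hda9 at 4. At 3 genes hda9 lay between sant-null and hda6 with Col-0 lowest. AT4G04565 had hda6 and hda9 both under Col-0, and PBP1 had only hda6 there. The hda6 value was above the hda9 value at 19 of the 23 genes, at 22 of the 969 and at 36.7% of all long genes. The hda9 threshold sets much of that contrast. Between sant-null and hda9 the median log2 ratio, fixed by the choice, was 0.86. Relative to the median of all long genes in each mutant, all 23 genes stayed above in sant-null, 17 were above in hda6 and 1 was above in hda9. The thresholds fixed the sant-null count and nearly fixed that of hda9, since 0.5 lies close to the hda9 median of 0.48. By definition, long genes divide evenly about each median. The hda9 ratio of the typical gene in the set was above Col-0 and, largely by the selection, below the median long gene. Its direction depends on the scale.

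The genes beside the set were examined next, leaving out for each gene those that overlap it. AT2G41120 overlaps CAM2 but was taken as a neighbour of TCH3, so it stands in both counts below. Of the 65 long genes that neighbour the 17 genes outside the stretch (2 on each side), 2 reached the sant-null threshold (AT2G41080 and AT3G45950, both over the hda9 one) and 17 were at least 1.5-fold higher, where 21.4% of all long genes were. Their median log2 ratio was 0.41 in sant-null, 0.24 in the hda6 line and 0.42 in hda9. Of 4 long genes that overlap one of the 17, CWINV2 at the end of UBQ1 also reached the threshold, with a log2 ratio of 1.04. At the TCH3 and CAM2 pair, AT2G41090 immediately upstream had 7.77 RPKM in the wild type, with 10.8 in sant-null, 11.5 in the hda6 line and 10.2 in hda9. Of the 23 genes, 14 overlap another listed gene, so some reads count for both genes of a pair.

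The authors' deposited table for sant-null against Col-0 has islands over all 6 genes of the set on chromosomes 3 and 5 that are called higher at an FDR under 0.05. Of 10061 long genes on these chromosomes, 4.69% overlap such an island. Islands come from the same libraries as the gene values, though their reads were counted at another depth, so this is no independent check. In the authors' deposited table, 518 of 5448 islands there were called higher and 4033 lower, with a median fold of 0.763. The selection on higher sant-null values fixes the direction at the 6 genes.

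The thresholds cut through a continuous range. Just inside the sant-null threshold stood AT4G23720 (log2 ratio 0.90), AT2G07775 (0.92) and AT1G66090 (0.92), and just outside AT2G07827, AT1G50740 and AT1G62730, each at 0.88. Just inside the hda9 threshold were AT2G05365 (0.49), CAM2 (0.47) and UBQ1 (0.47), and just outside BPS1 (0.50), ABCI4 (0.50) and HMGB5 (0.51). AT1G50740 overlaps AT1G50745 of the set, and AT2G07827 lies in the chromosome 2 stretch. The RPKM threshold removed no gene, the lowest sant-null level of the set being 9.09 RPKM.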

How the data were processed

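The authors deposited RPKM values per gene in 4 tables, 1 per genotype, per the file headers. The authors also deposited island tables with read counts, RPM values, a fold (ratio of normalized counts), p-values and an FDR, per the file headers; the p-values were not used. Per the submitters' processing notes, the tools were bedtools, SICER 1.0.3, CASAVA and Bowtie2 2.2.5 and the build was TAIR10; the notes list neither role nor order. Whether replicates were pooled, and whether input entered, is not stated in those sources.

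Reads recovered from RPKM and gene length were whole, to 0.01 reads, for 100% of values. Ratios were log2((mutant RPKM + 1)/(Col-0 RPKM + 1)), which understates changes of low genes, and 1.5-fold counts use this scale. Printed folds are RPKM ratios with exact conditional (Clopper-Pearson) 95% intervals, for counting error only, since ChIP reads are not independent molecules. No test across replicates could be run on 1 value per genotype. Only islands of chromosomes 3 and 5 were used, because islands of the others also followed genes of further chromosomes (rank correlation up to 0.178, against -0.01 at most on these). Symbols were looked up in RefSeq's gene table (TAIR10.1), where all 32548 loci matched, and no coordinates were taken from it. Families were taken by words in symbols and names.

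The genes and lists were chosen with earlier results of these data known, and the calmodulin, calcium pump, extensin, expansin-like and touch lists after the values were seen. Genes were named by a rule on symbols, ratios, levels, thresholds, families and neighbours, and the rest of the 23 were added for completeness. Computation used Python 3.11.15, pandas 2.3.3 and scipy 1.17.1, and the steps were tested on simulated data. Sequences were not analysed here.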

Additional observations from a re-analysis of the deposited data

How the results depend on the processing

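The set of 23 genes depended on the scale of the ratio. It had 12 genes with a pseudocount of 5 RPKM (11 shared with the 23), 8 with libraries scaled to equal medians (4 shared), 12 after quantile normalization (6 shared), 41 with genes of at least 500 bp and 6 with genes of at least 2000 bp. A pseudocount of 0.5 gave 25 genes (22 shared). LBD22 and AT5G53905 stayed under all 4 of the pseudocount and scaling settings, and UBQ1, AT2G05365, AT4G04565, TCH3 and AT2G24600 under 3, while 12 genes stayed only with a pseudocount of 0.5. With the genes held fixed, all 23 stayed above Col-0 in sant-null under both scalings, but those at least 1.5-fold higher fell to 12 with equal medians and 22 after quantile normalization. In hda9 0 of 23 stood above Col-0 with equal medians and 15 after quantile normalization. After quantile normalization 3 of the 23 were at least 1.5-fold higher in hda9, where 8.20% of long genes were. LBD22, AT5G53905, AT1G50745 and AT1G66090 turned to below Col-0 in hda6 under both.

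The count of genes at least 1.5-fold higher in hda6, 14 of 23, was 4 of 12 with a pseudocount of 5, 0 of 8 with equal medians, 3 of 12 after quantile normalization, 26 of 41 from 500 bp, 4 of 6 from 2000 bp and 8 of 17 outside the chromosome 2 stretch, the last chosen after seeing the data. The median hda6 log2 ratio became 0.24 with equal medians and 0.34 after quantile normalization. With equal medians that of sant-null to hda6 became 1.00 and that to hda9 1.01. Over all 5 chromosomes 22 of 23 genes overlapped an island called higher in the authors' deposited table. Islands outside chromosomes 3 and 5 also followed genes of further chromosomes, so overlaps there are not reliable. No share of all long genes was taken over the 5 chromosomes. The cause of the changes between settings was not tested, other than that fewer or more genes entered by length. The 73 other values stayed within 1.5 times the reported count or within the interval of the reported median. Many of them could not move, so their number does not measure stability. Settings on RPKM, on Col-0 reads and on the counting interval returned the same 23 genes. The count at least 1.5-fold lower in hda6 was 0 under every setting.

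No paired analysis was possible because the tables hold 1 value per genotype; for the same reason no library could be left out. Counting error limits Col-0 more than sant-null, since all 23 genes had fewer reads in Col-0.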
